A study of Mus musculus with 9 samples.

Results

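ID factors and members of the bone morphogenetic protein (BMP) pathway were followed in adult mouse neural stem cells (NSCs) during the first hours of differentiation. The 10 genes are the ligand gene Bmp4, the type I receptor genes Bmpr1a and Bmpr1b, the receptor-activated Smad gene Smad9, the inhibitory Smad genes Smad6 and Smad7, and the ID genes Id1, Id2, Id3 and Id4. They were chosen by symbol from the 48526 genes of the count table, and each symbol matched 1 Ensembl identifier in the GENCODE M21 annotation of the mouse genome (mm10, GRCm38). NSCs came from the subependymal zone (SEZ), the stem cell niche along the lateral ventricles, of adult mice labelled C57BL/6, which the methods of the study describe as wild-type C57BL/6J mice of 2 to 4 months. They were grown as neurospheres in medium with EGF and FGF, a culture of dividing stem and progenitor cells outside their tissue. Differentiation was induced on Matrigel, an adhesive substrate, without EGF but with FGF. The sources do not say for these libraries whether the 0 h cells were on the same substrate. Undifferentiated cells (0 h) were compared with cells 1 h and 6 h after induction, with 3 replicates per time point and 9 RNA-seq libraries in all. The sources do not say whether the replicates were separate animals or cultures, and p-values then measure only the spread between these samples, which may be technical.

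BMP ligands bind type I and type II receptors on the cell surface, and the type I receptor then phosphorylates SMAD1, SMAD5 and SMAD9, which enter the nucleus with SMAD4 and act on target genes. The ID genes are classic targets of this route. ID proteins have a helix-loop-helix domain but no DNA-binding region, and by pairing with E proteins such as TCF3 and TCF4 they keep proneural bHLH factors from binding DNA. In the SEZ, BMP signals and high ID levels are known for keeping stem cells undifferentiated or quiescent and for favouring glial over neuronal fates, and inhibitory Smads are induced by the pathway and limit it.

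A pair of short letter strings bound by SMAD proteins were looked for around the start sites of these genes, since this is the sequence through which the pathway is known to act on its targets. The windows were the promoters of RefSeq (GRCm38.p6), each with 250 bases before and 50 bases after a start site. They were examined for 8 of the 10 genes. Id1 had no entry, and Smad7 was not examined because its chromosome was left out of this search for the 10 genes. The GC-rich Smad element, written GGCGCC and the same on both strands, was present in the windows of Id2, Id4, Bmpr1a and Smad9, and in 11.9% of all 32851 windows. The palindromic Smad box, written GTCTAGAC and also the same on both strands, was present in the window of Smad6 and in 0.213% of all windows. The matches are given 5′ to 3′ on the strand of the gene, with the letters of the motif in capitals.
Id2 (chr12:25096307-25096334, minus strand, motif 231 bases before the start site): caggccccctgGGCGCCcagcgcacact
Id4 (chr13:48260957-48260984, plus strand, 148 bases before): tcgggttgcccGGCGCCccgccctcgcc
Bmpr1a (chr14:34502728-34502755, minus strand, 198 bases before): gcgcgcgcgccGGCGCCtcttgctcgcc
Smad9 (chr3:54755520-54755547, plus strand, 51 bases before): cacggccgcctGGCGCCcttccagcgcg
Smad6 (chr9:64022045-64022074, minus strand, 4 bases before): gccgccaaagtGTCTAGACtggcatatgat
In GENCODE M21 the matches of Id4 and Smad9 lie upstream of the gene, and those of Id2 and Bmpr1a lie in introns of longer transcripts. The match of Smad6 spans the start of the gene, partly upstream of it and partly in an untranslated exon. The windows of Id3, Bmp4 and Bmpr1b held neither string, which says only that these letters are not in these windows. GC content was between 60.0% and 79.3% in the windows of the other genes and between 48.3% and 55.7% in the 3 windows of Bmpr1b.

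Levels are given as CPM, the raw counts of the authors divided by library totals after TMM scaling in edgeR. Total counts were between 65871454 and 105592597 per library. In the neural stem cell marker list (Nes, Sox2, Gfap, Slc1a3, Vim, Fabp7, Prom1 and Sox9) the summed level was between 5975 and 9113 CPM in all libraries, and all 8 genes were detected, although Gfap, an astrocyte and stem cell filament gene, was only between 0.476 and 1.63 CPM. Libraries with the same replicate number deviated together, so each time comparison is given from a fit with time point alone, which was the main test, and from a fit that also holds the replicate number as a block. The common biological coefficient of variation was 0.277 in the first and 0.0627 in the second. In both, a gene was called when its Benjamini-Hochberg adjusted p over the 18858 tested genes was under 0.05 in the quasi-likelihood test of edgeR. The 3 comparisons share libraries and are not independent of each other. In bulk samples such as these, fewer cells of a type and less RNA per cell cannot be told apart.

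Of the 10 genes, 9 passed the expression filter and Bmp4 did not. In the fit with time point alone, none of the 9 was called at 1 h against 0 h, at 6 h against 0 h or at 6 h against 1 h, where 0.0424%, 2.42% and 2.14% of all tested genes were called. Unadjusted p-values under 0.05 were found for 2, 1 and 1 of the 9 genes, and DESeq2 without a block called 0, 0 and 1. Over all 18858 tested genes, 735, 3373 and 3335 had an unadjusted p under 0.05 in edgeR. DESeq2 without a block called 99, 1742 and 1695 of them. With the replicate block, 3 of 9 were called at 1 h against 0 h (1 higher and 2 lower), 3 at 6 h against 0 h (all lower) and 5 at 6 h against 1 h (1 higher and 4 lower). The background in that fit was 3.51% of all tested genes at 1 h against 0 h (1.36% higher and 2.14% lower), 34.9% at 6 h against 0 h (17.4% higher and 17.5% lower) and 35.6% at 6 h against 1 h (18% higher and 17.5% lower). For 6 h against 0 h, 3 of 9 genes is thus near the share of all genes. DESeq2 with the block gave the same counts of 3, 3 and 5, beside 929, 6126 and 6285 of all tested genes. The median log2 fold change of the 9 genes with the block was -0.17 at 1 h against 0 h, -0.10 at 6 h against 0 h and -0.05 at 6 h against 1 h, and the medians of all tested genes were within 0.01 of 0 in these comparisons.

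**Figure D1:**
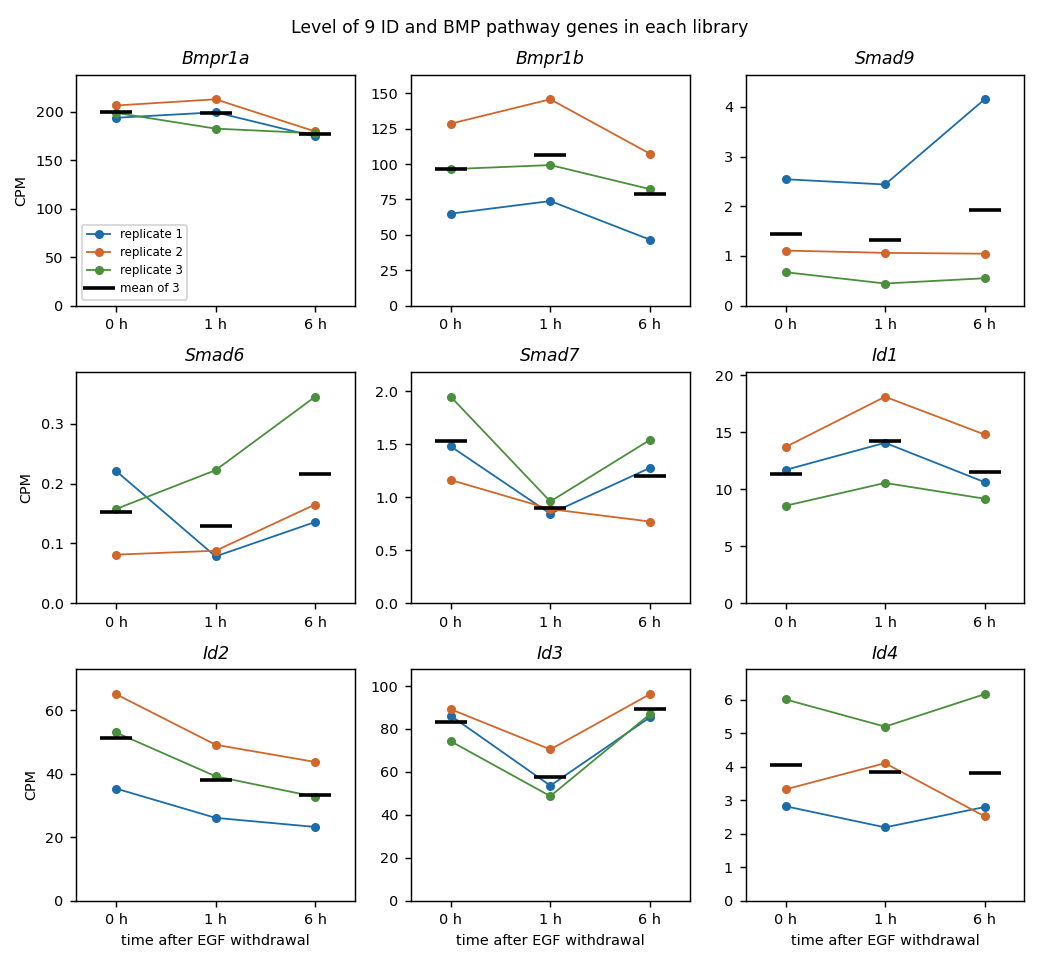
Level in CPM (vertical axes, each from 0) of the 9 genes that passed the expression filter, at the 3 time points (horizontal axes). Each coloured point is 1 library, lines join libraries with the same replicate number, and black bars are means of 3. Id3 dips at 1 h and Id2 steps down in each of the 3 replicates, while the lines of Id1, Id2, Bmpr1b and Smad9 keep their order at each time point.

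Bmp4, which encodes a secreted ligand and is located on chr14:46383520-46390669, was almost absent from the cells. Only 2 counts were found in the 9 libraries, 1 in 1 h replicate 1 and 1 in 6 h replicate 2. A count of 0 allows up to 3 counts, which is a level between 0.028 and 0.0469 CPM depending on the library, and this limit covers counting error only. No fold change is given for it. Among the 11 other ligand genes examined, Bmp7 was the abundant one, at 108 ± 10.4 CPM at 0 h, 107 ± 9.79 at 1 h and 104 ± 7.89 at 6 h (mean ± SD, n = 3), and it was not called in any comparison with either fit.

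The receptor gene Bmpr1a (chr14:34410734-34503341) was the most abundant of the 10 in reads. Its level was 194, 207 and 199 CPM in replicates 1, 2 and 3 at 0 h, 200, 213 and 183 CPM at 1 h, and 175, 180 and 178 CPM at 6 h. All 3 libraries at 6 h were below every library at 0 h and 1 h, whereas the levels at 0 h and 1 h overlapped. The log2 fold change at 6 h against 0 h was -0.17 with an SE of 0.051 with the block (edgeR, adjusted p = 0.0198) and -0.17 with time point alone (adjusted p = 0.256). Against 1 h it was -0.16 with an SE of 0.051 with the block (edgeR, adjusted p = 0.0273) and -0.16 with time point alone (adjusted p = 0.289). These were the smallest changes that were called among the 10 genes, and they depended on single libraries. Leaving out replicate 1, 2 or 3 of 0 h or replicate 1 or 2 of 6 h each ended the call at 6 h against 0 h (highest edgeR adjusted p 0.131). That at 6 h against 1 h ended when replicate 2 of 0 h, or replicate 1 or 2 of either later time point, was left out (highest edgeR adjusted p 0.189), and also when libraries were scaled to their totals (0.0822) or when only the 6 libraries compared were fitted (0.0772). At 1 h against 0 h the estimate was -0.01 with an SE of 0.051 (edgeR with the block, adjusted p = 0.935).

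Bmpr1b (chr3:141837136-142169425), the other type I receptor gene among the 10, was lower at 6 h in each replicate number. Its level was 64.9, 128 and 96.4 CPM in replicates 1, 2 and 3 at 0 h, 73.9, 146 and 99.3 CPM at 1 h, and 46.6, 107 and 82.3 CPM at 6 h. Replicate 2 was the highest and replicate 1 the lowest at all 3 time points, and the groups overlapped for that reason. Averaged over time, replicate 2 was 2.06 times as high as replicate 1. Within replicate numbers, the log2 ratio of 6 h to 0 h was -0.48, -0.26 and -0.23, and that of 6 h to 1 h was -0.66, -0.44 and -0.27. With the block the changes were -0.32 with an SE of 0.065 at 6 h against 0 h (edgeR, adjusted p = 0.00205) and -0.46 with an SE of 0.065 at 6 h against 1 h (adjusted p = 0.000159), and both calls were kept in 9 of 9 fits that left out 1 library. The adjusted p of edgeR with time point alone was 0.769 and 0.620. At 1 h all 3 ratios to 0 h were above 0, between 0.04 and 0.19, but the estimate of 0.14 with an SE of 0.064 did not pass the test (edgeR with the block, adjusted p = 0.279).

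Smad9 (chr3:54755582-54801257), one of the Smads that BMP receptors activate, differed far more between replicate numbers than between time points. Its level was 2.54, 1.11 and 0.673 CPM in replicates 1, 2 and 3 at 0 h, 2.44, 1.06 and 0.445 CPM at 1 h, and 4.15, 1.05 and 0.551 CPM at 6 h. Replicate 1 was the highest and replicate 3 the lowest at every time point, with a 5.47-fold difference between their means over time. Replicate 1 was higher at 6 h than at 0 h (log2 ratio 0.71), while replicates 2 and 3 had ratios of -0.08 and -0.29. No comparison passed the test, and the smallest adjusted p was 0.134 (edgeR with the block, 6 h against 1 h, log2 fold change 0.40 with an SE of 0.20). The levels of the 2 other Smads of this class are given with the rest of the pathway.

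Of the inhibitory Smads, Smad7 (chr18:75367529-75395935) blocks the activated type I receptor, and Smad6 (chr9:63953076-64022059) acts mainly against BMP signals. The level of Smad7 was 1.48, 1.16 and 1.95 CPM in replicates 1, 2 and 3 at 0 h, 0.844, 0.887 and 0.959 CPM at 1 h, and 1.28, 0.770 and 1.54 CPM at 6 h. The 3 libraries at 1 h were below all 3 at 0 h, and those at 6 h overlapped both. The log2 fold change at 1 h against 0 h was -0.73 with an SE of 0.19 with the block, which just missed the threshold (edgeR, adjusted p = 0.0527), and -0.77 with time point alone (adjusted p = 1.00). It passed the threshold in 3 of 9 fits with the block that left out 1 library, namely those without replicate 2 of 1 h and without replicate 2 or 3 of 6 h (lowest edgeR adjusted p 0.0243), and also without a filter on low counts (0.00198) or with libraries scaled to their totals (0.0460). Without the other 6 libraries in turn the adjusted p was up to 0.276. Smad6 had between 5 and 37 counts per library, or between 0.0781 and 0.345 CPM, and at this depth no change was detectable. Its estimate with the block was -0.28 with an SE of 0.47 at 1 h against 0 h and 0.47 with an SE of 0.42 at 6 h against 0 h (edgeR, adjusted p = 0.806 and 0.428).

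Id1, Id2 and Id3, the targets through which BMP signals restrain bHLH factors, differed in the order of their levels over time. Id1 was higher at 1 h than at 0 h and 6 h, Id2 was lower at 1 h than at 0 h and lower still at 6 h, and Id3 was lower at 1 h than at 0 h and 6 h. In edgeR, with all 9 libraries, these calls were made in the fit with the replicate block and not with time point alone.

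The level of Id3 (chr4:136143497-136145755) was 86.2, 89.2 and 74.2 CPM in replicates 1, 2 and 3 at 0 h, 53.6, 70.5 and 48.7 CPM at 1 h, and 85.4, 96.2 and 86.9 CPM at 6 h. Every library at 1 h was below every library at 0 h and at 6 h, and the levels at 0 h and 6 h overlapped. Means were 83.2 ± 7.90 CPM at 0 h, 57.6 ± 11.4 at 1 h and 89.5 ± 5.86 at 6 h (SD, n = 3). With the block Id3 fell to 0.687 of its 0 h level at 1 h (log2 fold change -0.54, SE 0.071, edgeR, adjusted p = 0.000973) and rose 1.57-fold from 1 h to 6 h (0.65, SE 0.071, adjusted p = 2.20e-05). Both calls were kept in 9 of 9 fits that left out 1 library. With time point alone the adjusted p in edgeR was 0.775 at 1 h against 0 h and 0.0614 at 6 h against 1 h, and the second came under the threshold only without 1 h replicate 2 (0.0348). DESeq2 with time point alone called Id3 at 6 h against 1 h (adjusted p = 0.00282). Between 0 h and 6 h the change was 0.11 with an SE of 0.070 (edgeR with the block, adjusted p = 0.261).

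The level of Id2 (chr12:25093799-25097140) was 35.3, 65.1 and 53.0 CPM in replicates 1, 2 and 3 at 0 h, 26.1, 49.1 and 39.2 CPM at 1 h, and 23.2, 43.7 and 32.7 CPM at 6 h. Each replicate was highest at 0 h and lowest at 6 h, but replicate 2 stood above replicates 1 and 3 throughout and the groups overlapped. The log2 ratio of 1 h to 0 h was -0.44, -0.41 and -0.44 in the 3 replicate numbers, and that of 6 h to 0 h was -0.61, -0.57 and -0.70. With the block Id2 fell to 0.744 of its 0 h level at 1 h (log2 fold change -0.43, SE 0.051, edgeR, adjusted p = 0.000490) and to 0.648 at 6 h (-0.63, SE 0.051, adjusted p = 1.77e-06), and both calls were kept in 9 of 9 fits that left out 1 library. From 1 h to 6 h the further fall was -0.20 with an SE of 0.051 (edgeR with the block, adjusted p = 0.00891), and it was lost without 6 h replicate 3 (0.0537). Adjusted p-values of edgeR with time point alone were 1.00, 0.360 and 0.826 for 1 h against 0 h, 6 h against 0 h and 6 h against 1 h.

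The level of Id1 (chr2:152736251-152737410) was 11.7, 13.7 and 8.54 CPM in replicates 1, 2 and 3 at 0 h, 14.1, 18.1 and 10.5 CPM at 1 h, and 10.6, 14.8 and 9.16 CPM at 6 h. It was highest at 1 h in each replicate number, and replicate 2 was the highest and replicate 3 the lowest at each time point. With the block Id1 rose 1.25-fold at 1 h (log2 fold change 0.33, SE 0.073, edgeR, adjusted p = 0.0266) and fell to 0.813 of its 1 h level at 6 h (-0.30, SE 0.072, adjusted p = 0.00606). The rise did not pass when replicate 1, 2 or 3 of 0 h or replicate 1 or 2 of 1 h was left out (highest edgeR adjusted p 0.216), whereas the later fall was kept in 9 of 9 fits. Between 0 h and 6 h the change was 0.03 with an SE of 0.073 (edgeR with the block, adjusted p = 0.812). The fit with time point alone gave an edgeR adjusted p of 1.00 at 1 h against 0 h and 0.625 at 6 h against 1 h.

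Id4 (chr13:48261228-48266026), whose product can also bind other ID proteins, was expressed at a low level. It was 2.82, 3.32 and 6.01 CPM in replicates 1, 2 and 3 at 0 h, 2.19, 4.11 and 5.20 CPM at 1 h, and 2.80, 2.52 and 6.17 CPM at 6 h. Replicate 3 was the highest at each time point, and the replicates did not share a direction over time. The estimates with the block were -0.06 at 1 h against 0 h, -0.10 at 6 h against 0 h and -0.05 at 6 h against 1 h, each with an SE of 0.16, and none passed the test (edgeR, adjusted p = 0.892, 0.661 and 0.848). Exons of A330033J07Rik on the opposite strand share 82 bases with Id4. That gene had 66 reads in all libraries against 2855 for Id4, and the strand setting of the counting is not given in the sources used here.

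**Figure D2:**
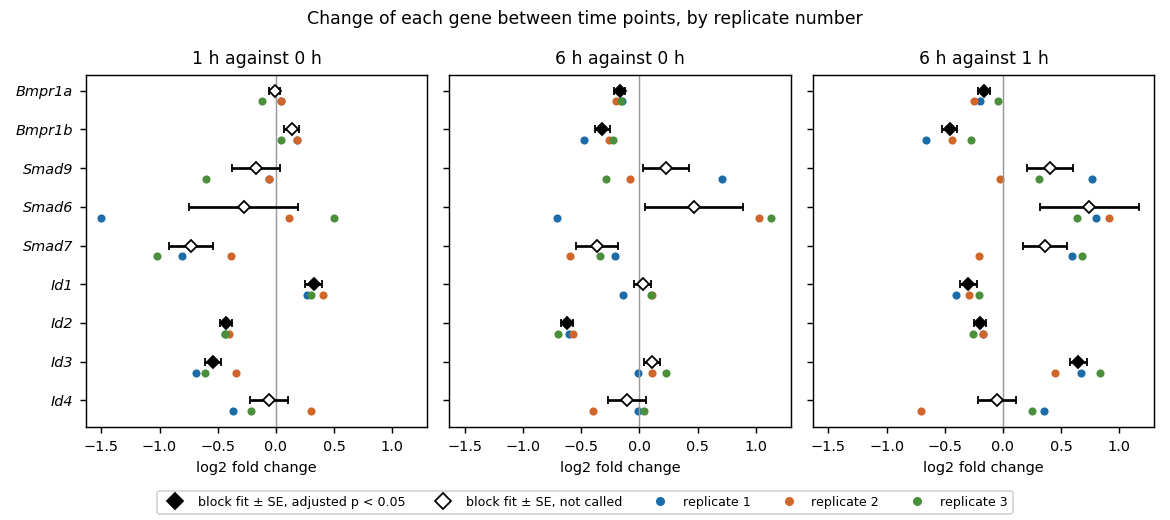
Log2 fold changes (horizontal axes) of the 9 genes in the 3 comparisons. Diamonds are estimates with the replicate block ± SE, filled where the adjusted p was under 0.05, and coloured points are the ratios of single replicate numbers; the ratios of Id2 lie close together at 1 h against 0 h (-0.44 to -0.41), and those of Smad6 spread from -1.50 to 0.50.

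Since Id1 and Id3 moved in opposite directions at 1 h, their counts were also set against each other within each library, which removes the scaling of the library. The ratio of Id1 to Id3 was between 0.115 and 0.154 at 0 h, between 0.217 and 0.263 at 1 h and between 0.105 and 0.154 at 6 h. The ranges at 1 h did not overlap those at 0 h or 6 h, and the ratio was higher at 1 h than at 0 h in 3 of 3 replicate numbers. The two-sided exact permutation test gave p = 0.1 for each of these comparisons, which is the smallest value that 3 against 3 libraries allow, and 0.3 after Benjamini-Hochberg adjustment over 9 tests of 3 ratios. The ratio of Id2 to Id3 was between 0.272 and 0.454 at 6 h and between 0.487 and 0.805 at 1 h (exact permutation p = 0.1, adjusted 0.3). These ratios were chosen after the levels had been seen.

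For 6 of the 9 tested genes the variation of log2 CPM between replicate numbers was larger than that between time points. Replicate number took 94.2% of the sum of squares of Smad9, 85.4% of Id4, 81.8% of Bmpr1b, 77.8% of Id1, 66.9% of Id2 and 46.0% of Smad6. Time point took the larger share in Id3 (77.7%), Bmpr1a (64.7%) and Smad7 (49.8%). The order of the 3 replicates was the same at each time point in 4 genes, namely Id1, Id2, Bmpr1b and Smad9. The replicate that stood highest was not the same for all genes: it was replicate 2 for Id1, Id2 and Bmpr1b, replicate 3 for Id4 and replicate 1 for Smad9. Neither the split nor the order was counted over all tested genes, so these counts do not set the 9 genes apart. Adding the block lowered the common coefficient given above, which covers the tested genes, from 0.277 to 0.0627. Differences between replicate numbers were therefore not particular to this set. What libraries with the same number share is not stated in the sources used here.

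To compare genes with each other, levels were divided by the merged exon length, and the values in this paragraph are levels in CPM per kb over all 9 libraries. Id3 was the highest at 42.9 ± 9.20 (mean ± SD), followed by Bmpr1a at 30.2 ± 2.16, Id2 at 16.7 ± 5.50, Bmpr1b at 15.7 ± 5.21 and Id1 at 10.7 ± 2.64. Id4 was far lower at 1.01 ± 0.400, and Smad9 (0.290 ± 0.230), Smad7 (0.267 ± 0.0866), Smad6 (0.0518 ± 0.0271) and Bmp4 (0.00132 ± 0.00266) came last. Neighbours in this order whose ranges overlapped were Id3 and Bmpr1a, Id2 and Bmpr1b, Bmpr1b and Id1, Id4 and Smad9, and Smad9 and Smad7. The ranges of Bmpr1a and Id2, of Id1 and Id4, of Smad7 and Smad6, and of Smad6 and Bmp4 did not overlap. With the length of the longest transcript instead, Id3 was at 60.1.

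**Figure D3:**
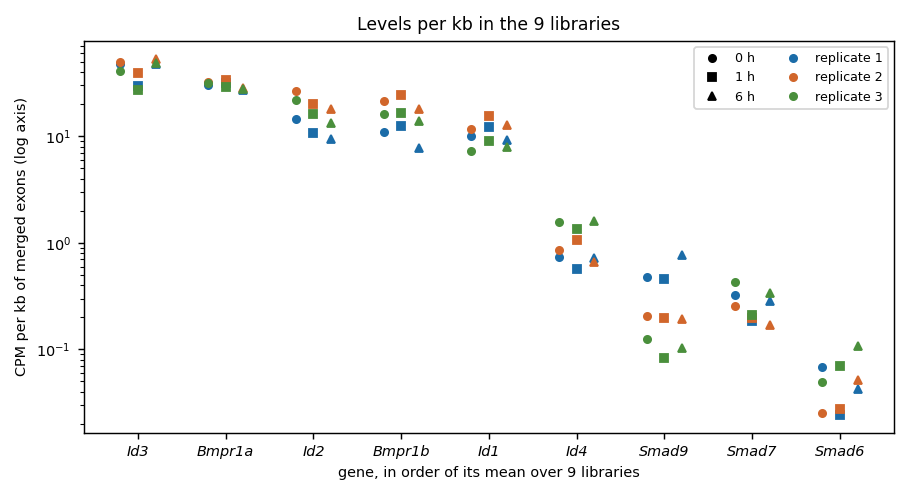
Level per kb of merged exons (vertical axis, CPM per kb, log scale) of 9 genes in order of their mean; each point is 1 library, shapes mark the time points and colours the replicate numbers. The levels of Id1, Id2, Id3 and both receptor genes lie between 7.36 and 53.7, and those of Id4 and the Smads between 0.0244 and 1.60. Bmp4, at 0 in 7 of 9 libraries, is not drawn.

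The genes whose course was most like that of each ID gene were found among 10900 genes with a mean of at least 5 CPM, by Pearson's r of log2 CPM over the 9 libraries after subtraction of the mean of each replicate number. These values are descriptions, and libraries with the same number share that mean. Id3 was closest to Zfp760 (r = 0.995), Snapc4 (0.993) and Bicral (0.991), all of which were lowest at 1 h. Zfp760, for example, had a mean of 25.0 CPM at 0 h, 19.3 at 1 h and 25.4 at 6 h. Id2 was closest to 1700017B05Rik (0.993), N4bp1 (0.992) and the non-coding RNA gene Tug1 (0.987), each of which stepped down over the 6 h, N4bp1 from 174 to 124 CPM. Id1 was closest to Pdp1 (0.989), Gak (0.987) and Tspan31 (0.970), which were highest at 1 h, Pdp1 with 12.1 CPM at 0 h, 15.8 at 1 h and 12.4 at 6 h. The closest genes to Id4 were Rpp40 (0.948), Pknox2 (0.874) and Adamts10 (0.874). In the split of variation above, time point took only 0.979% in Id4, and 13.7% lay outside both time point and replicate number. No gene was among the 3 closest of more than 1 ID gene in these lists. The lists depended on the method. Without subtraction of the replicate mean the result changed for all 4 ID genes, and with Spearman's correlation it changed for 2 and stayed the same for 2.

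The rest of the BMP pathway was described with a list of 70 genes in 8 roles, of which 59 were tested. With time point alone 0, 1 and 1 of the 59 were called at 1 h against 0 h, 6 h against 0 h and 6 h against 1 h, with unadjusted p-values under 0.05 for 4, 10 and 7, and DESeq2 called 1, 3 and 3. With the block 5 genes were called at 1 h against 0 h (2 higher and 3 lower), 24 at 6 h against 0 h (9 higher and 15 lower) and 16 at 6 h against 1 h (6 higher and 10 lower), to be read beside the background of all tested genes given above. The counts over all tested genes for unadjusted p-values and for DESeq2 are also given above. The median log2 fold change of the 59 genes with the block was 0.04, -0.02 and -0.04. The calls at 1 h depended on single libraries: leaving out replicate 2 of 0 h gave 0, leaving out replicate 1 or 3 of 0 h gave 1, and leaving out replicate 1 or 2 of 1 h gave 2. For 6 h against 0 h the count was 12, 14 and 15 when replicate 2, 1 or 3 of 0 h was left out, and 15 when replicate 2 of 6 h was.

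Olig2, a bHLH gene of oligodendrocyte and transit-amplifying cells, was between 545 and 701 CPM at 0 h and between 708 and 849 CPM at 6 h, and rose by 0.29 with an SE of 0.051 (edgeR with the block, adjusted p = 0.000742; 0.233 with time point alone). Neurog2, a proneural gene, had between 1 and 27 counts per library at 6 h and was chosen for mention after its values were seen. It was also called as higher at 6 h against 0 h in edgeR with the block (adjusted p = 0.00977), but not with time point alone (0.431). Its log2 ratios were 3.14, 1.82 and -0.62 in the 3 replicate numbers, which did not share a direction, and the groups overlapped. The E protein gene Tcf12 fell from 671 to 564 CPM between 1 h and 6 h (log2 fold change -0.25, SE 0.057, edgeR with the block, adjusted p = 0.00395, and 0.58 with time point alone).

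Among ligands, 6 of 11 genes were tested. Bmp2 was called as higher with the block at 1 h and 6 h against 0 h, and Bmp3 at 6 h against 0 h and against 1 h. Both were under 1 CPM on average and were chosen for mention after their values were seen. Bmp2 had a mean of 0.166 CPM at 0 h, 0.607 at 1 h and 0.483 at 6 h, with a log2 fold change of 1.87 and an SE of 0.35 at 1 h (edgeR with the block, adjusted p = 0.0104; 1.00 with time point alone). The mean of Bmp3 was 0.0918 CPM at 0 h and 0.378 at 6 h.

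The secreted antagonists and modulators had 2 calls with the block at 6 h against 0 h and 3 at 6 h against 1 h among 11 tested genes, where 34.9% and 35.6% of all tested genes were called. Chrd, which encodes the BMP antagonist chordin, rose from 1.96 to 3.16 CPM between 0 h and 6 h (log2 fold change 0.71, SE 0.14, edgeR with the block, adjusted p = 0.00174). Bmper, a BMP-binding modulator, fell from 51.4 to 41.6 CPM (-0.29, SE 0.087, adjusted p = 0.0187), and Fst, which encodes the activin and BMP binding protein follistatin, fell between 1 h and 6 h from 4.64 to 2.97 CPM (-0.65, SE 0.11, adjusted p = 0.000699, both edgeR with the block). With time point alone edgeR called none of these, and DESeq2 called Chrd at 6 h against 0 h (adjusted p = 0.0209).

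Among the 8 receptor and co-receptor genes, the type II receptor genes Bmpr2 and Acvr2a fell at 6 h against 0 h, by 0.20 and 0.18 on the log2 scale, and the co-receptor gene Rgmb rose by 0.31 at 1 h and 0.22 at 6 h, with SEs between 0.059 and 0.068 (edgeR with the block, adjusted p = 0.0197, 0.0324, 0.0232 and 0.0217). Bmpr2 was at 308 ± 60.5 CPM at 0 h, above Bmpr1a and Bmpr1b in CPM. The receptor-activated Smad gene Smad5 was at 276 ± 50.3 CPM at 0 h and fell at 1 h (-0.21, SE 0.047, edgeR with the block, adjusted p = 0.0258) and at 6 h against 0 h (-0.14, SE 0.047, adjusted p = 0.0290). Smad1 was at 38.0 ± 4.11 CPM and fell at 6 h against 0 h (-0.19, SE 0.050, edgeR with the block, adjusted p = 0.00907). Smad4, the shared partner, was not called in any comparison. With time point alone edgeR called no gene named in this paragraph (for example adjusted p = 0.727 for Bmpr2 and 0.268 for Acvr2a at 6 h against 0 h). DESeq2 with time point alone called Rgmb at 1 h against 0 h (adjusted p = 0.0323).

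Of the 9 intracellular and membrane inhibitors, 5 were called as lower and none as higher at 6 h against 0 h with the block, beside 17.5% and 17.4% of all tested genes. Bambi, a pseudoreceptor gene that is itself a target of the pathway, had the largest change in this role. At 6 h it fell by 0.38 on the log2 scale against 0 h and by 0.66 against 1 h (edgeR with the block, adjusted p = 0.00293 and 5.24e-05). Before that, at 1 h against 0 h, Bambi was higher in 3 of 3 replicate numbers, with log2 ratios between 0.25 and 0.32. This rise of 0.28 with an SE of 0.080 was not called by edgeR with the block (adjusted p = 0.0820). DESeq2 with the block did call it (adjusted p = 0.0391). At 1 h Skil and Smurf1 fell by 0.32 and 0.20 (edgeR with the block, adjusted p = 0.0183 and 0.0386). Skil encodes a repressor of Smads and Smurf1 a ubiquitin ligase that marks Smads and receptors for degradation. None of the 3 named inhibitor genes was called by edgeR with time point alone (for Bambi adjusted p = 0.447 against 0 h and 0.181 against 1 h).

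Of the 4 other target genes tested, Hey1, a bHLH repressor gene, fell from 40.3 to 29.3 CPM between 0 h and 6 h (-0.47, SE 0.069, edgeR with the block, adjusted p = 0.000204), and Runx2 fell by 0.39 (adjusted p = 0.0205). Atoh8 was at 1.63 CPM at 0 h, 1.13 at 1 h and 2.31 at 6 h, and it rose 2.12-fold from 1 h to 6 h (edgeR with the block, adjusted p = 0.000670). Like Id3, Atoh8 had its lowest mean at 1 h, but its value at 1 h against 0 h did not pass the test (adjusted p = 0.156). In the TGF-beta and activin branch the receptor genes Tgfbr1 and Tgfbr2 fell at 6 h against 0 h by 0.48 and 0.27 and the ligand gene Tgfb2 rose by 0.23 (edgeR with the block, adjusted p = 0.000176, 0.0204 and 0.0179). Neither these genes nor Hey1, Runx2 and Atoh8 were called by edgeR with time point alone (for example adjusted p = 0.461 for Hey1 and 0.894 for Tgfb2 at 6 h against 0 h).

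**Figure D4:**
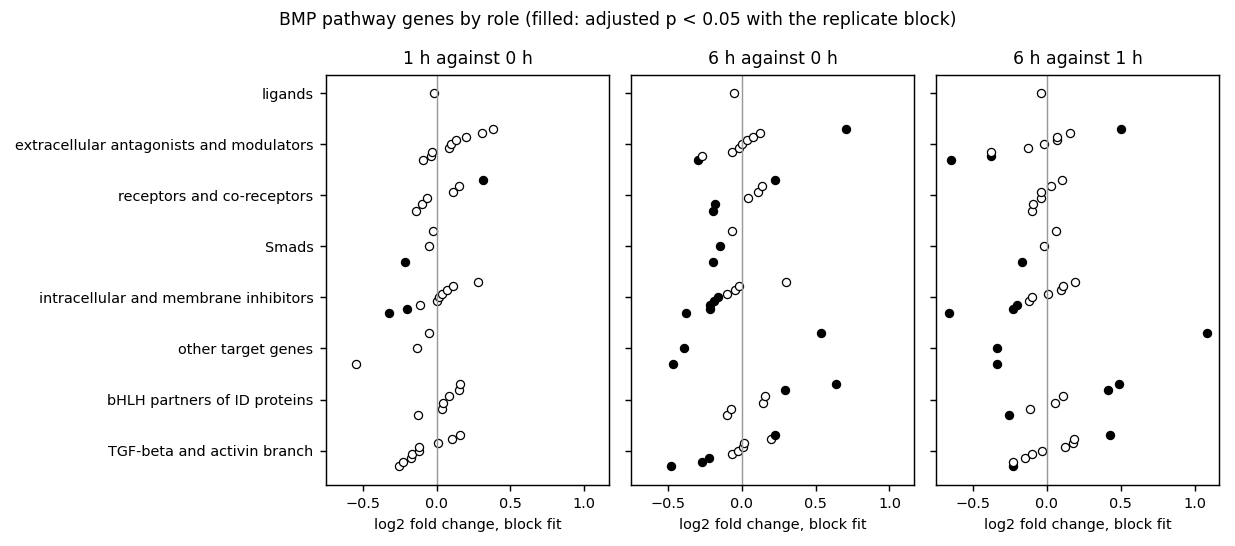
Log2 fold change with the replicate block (horizontal axes) of the 46 tested pathway genes with a mean of at least 1 CPM, in rows by role; each point is 1 gene, and filled points had an adjusted p under 0.05. Changes range from -0.55 to 0.38 at 1 h against 0 h, from -0.48 to 0.71 at 6 h against 0 h and from -0.66 to 1.08 at 6 h against 1 h. Filled inhibitor genes lie to the left of 0 in all 3 panels, while Bambi at 1 h against 0 h is an open point to the right (0.28).

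Markers of other cell types that express BMP and ID genes were also measured. The 5 endothelial markers summed to between 3.35 and 5.27 CPM at 0 h, between 2.70 and 4.74 at 1 h and between 1.97 and 3.69 at 6 h, and 2 of them, Cldn5 and Cdh5, had 2 and 8 reads in all. Kdr and Tek were lower at 6 h than at 0 h (log2 fold change -0.72 and -0.83, edgeR with the block, adjusted p = 0.000682 and 0.0188). Pecam1 was not called (0.29, edgeR with the block, adjusted p = 0.577). The 5 mural and fibroblast markers summed to between 1.93 and 4.77 CPM at 0 h, 2.30 and 4.34 at 1 h and 2.10 and 8.12 at 6 h, with Dcn and Lum at 11 and 10 reads in all. At 6 h against 0 h Pdgfrb was higher (3.68, edgeR with the block, adjusted p = 2.31e-07) and Rgs5 lower (-0.77, adjusted p = 0.00430). Col1a1 was not called (0.18, edgeR with the block, adjusted p = 0.543). The 5 microglia markers stayed under 0.5 CPM in sum, with Itgam at 0 in all libraries. Ependymal markers summed to between 46.0 and 87.1 CPM at 0 h, 50.9 and 92.3 at 1 h and 37.4 and 60.0 at 6 h, nearly all of it Foxj1, and the 4 others were under 1 CPM in every library. The 5 neuroblast and neuron markers summed to between 18.5 and 38.0 CPM at 0 h, between 24.6 and 40.9 at 1 h and between 56.9 and 121 at 6 h. Of these, Tubb3, Rbfox3 and Syt1 were called as higher at 6 h with the block, while Dcx and Stmn2 had log2 fold changes of -0.35 and -0.77 and were not called (edgeR with the block, adjusted p = 0.291 and 0.108). Syt1 alone reached 114 CPM, so it made up most of the highest sum, and Dcx, the neuroblast marker, had at most 1.78 CPM. The 5 oligodendrocyte lineage markers summed to between 13.7 and 22.5 CPM at 0 h, 12.6 and 18.5 at 1 h and 17.4 and 27.8 at 6 h. Among the 8 stem cell markers 2 were higher and 3 lower at 6 h with the block. The part of these cell types in the values of Id2, Bmpr1a and Bmpr1b at 6 h was not tested.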

How the data were processed

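The authors aligned paired-end reads of stranded mRNA libraries to mm10 (GRCm38) and used STAR 2.5.3a, FastQC and DESeq2 1.22.1, per their processing notes. The deposited values are raw read counts for each Ensembl gene, not normalised, in 9 libraries (3 replicates at each of 3 time points). Of 48526 identifiers, 48058 matched GENCODE M21. The strand setting of the counting is not given in the sources used here. Each column matched 1 library by its name, and the chi-square per degree of freedom was at least 13.4 in all 36 pairs of libraries, so no library was present under 2 names.

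Fits used edgeR 4.0.16 and DESeq2 1.42.0 under R 4.3.3, and figures used matplotlib 3.10.9 under Python 3.11.15. Genes were kept with filterByExpr (minimum count 10, minimum total count 15). The main test was the quasi-likelihood test of edgeR over all 9 libraries with time point as the only factor, TMM scaling and Benjamini-Hochberg adjustment over 18858 genes. The replicate numbers stand, in order, for the letters B, C and D in the library titles, whose meaning the sources do not state. After subtraction of time point means, libraries with the same number correlated between 0.733 and 0.800 (9 pairs), so the numbers pair the samples. Others correlated between -0.462 and -0.314 (18 pairs). The subtraction makes the deviations at a time point cancel within each gene, which pushes the values of these other pairs to be negative, so they add no support. Log2 CPM for likeness used a prior count of 2, and the split of variation used log2(CPM + 0.1). The fits were tested on simulated data.

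All 10 genes were named in each comparison. Pathway genes were named by role and comparison, up to 3 with the largest change among those called with or without the block, if their mean was 1 CPM or more and 3 of 3 replicate numbers shared the direction, and 1 gene named by this rule is not reported here. Levels rest on totals that limit precision for genes with few counts. The members and lists were chosen with earlier results of these data known. Alternatives were DESeq2, the replicate block, RLE scaling, library totals, no filter, a mean of at least 1 CPM, fitting the 6 libraries compared, a threshold of 0.01, a change of 1 or more on the log2 scale and leaving out single libraries. The same alternatives with the block, and the ratio test, were chosen after seeing the data.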

Additional observations from a re-analysis of the deposited data

How the results depend on the processing

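The replicate block decided most calls. With it 3, 3 and 5 of the 9 tested genes and 5, 24 and 16 of the 59 pathway genes were called at 1 h against 0 h, 6 h against 0 h and 6 h against 1 h, where the fit with time point alone called 0, 0 and 0 and 0, 1 and 1. DESeq2 called 0, 0 and 1 and 1, 3 and 3 without the block, and 3, 3 and 5 and 6, 23 and 14 with it. Over all tested genes DESeq2 called 99, 1742 and 1695 without the block and 929, 6126 and 6285 with it. RLE scaling, library totals, no filter and a mean of at least 1 CPM left the counts with time point alone within 1.5 times, and the 6 libraries alone gave 0 pathway genes at 6 h against 1 h. With time point alone a threshold of 0.01 or a log2 change of 1 or more gave 0 pathway genes at 6 h in both comparisons. With the block a log2 change of 1 or more left 0 of the 9 genes in each comparison and 1, 3 and 2 pathway genes, an adjusted p under 0.01 left 0, 13 and 10 pathway genes, and no filter gave 11 pathway genes at 1 h. Leaving out 1 library with time point alone gave 0 to 1 of the 9 genes at 6 h against 1 h and 0 to 1 pathway genes in both comparisons of 6 h. With the block it gave 2 to 4, 2 to 3 and 4 to 5 of the 9 genes, and 0 to 6, 12 to 27 and 11 to 18 pathway genes.

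The log2 fold change of Id4 at 6 h against 1 h, near 0 with time point alone, was 0.0315 with library totals, 0.0109 without a filter and 0.0114 with a mean of at least 1 CPM. Leaving out 1 library with time point alone turned the direction of values that had not been called. At 1 h against 0 h the range was -0.0668 to 0.0498 for Bmpr1a, -0.16 to 0.40 for Bmpr1b, -0.36 to 0.32 for Id4, -0.86 to 0.12 for Smad6 and -0.93 to 0.56 for Smad9. At 6 h against 0 h it was -0.19 to 0.19 for Id1, -0.61 to 0.32 for Id4, -0.0217 to 0.87 for Smad6 and -0.86 to 1.10 for Smad9, and at 6 h against 1 h -0.44 to 0.0312 for Id2, -0.53 to 0.28 for Id4 and -0.72 to 1.33 for Smad9. The cause was not tested. The median of all tested genes stayed within 0.04 of 0 under every scaling.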
